A study of Rattus norvegicus with 12 samples.

Results

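Of the 32662 Ensembl gene identifiers counted, 5 encode complement components and were followed in hippocampal CA1 of rats with chronic epilepsy. They were selected by identifier: C1qa (ENSRNOG00000012807), C1qb (ENSRNOG00000012804), C1qc (ENSRNOG00000012749), C3 (ENSRNOG00000046834) and Serping1 (ENSRNOG00000007457). All 5 had counts in every library and passed the filter on low counts in every comparison. Epileptic animals were adult male Wistar rats, 45 to 50 days old per the labels, given repeated kainate, a glutamate receptor agonist, at 5 mg/kg until status epilepticus set in, with diazepam at 4 mg/kg to end the convulsions, and sampled 6 to 8 weeks after it. Control animals were adult male Wistar rats of the same labelled age that received vehicle, which was saline or DMSO without a statement of which rat had which. Both the deep sublayer and the superficial sublayer of CA1 were laser-microdissected from 20 µm sections of each of 3 epileptic and 3 control brains, which gave 12 RNA-seq libraries in 4 groups of 3. Seizures were seen or recorded in only a subset of the animals per the labels, so the severity of epilepsy in each rat is not given.

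Complement is a cascade of secreted proteins that marks targets for removal. C1q, assembled from A, B and C chains that are encoded by C1qa, C1qb and C1qc, recognises the target and starts the classical pathway. C3 is the protein on which all routes of the cascade converge, and its fragments are deposited on the target and read by receptors on phagocytes. Serping1 encodes the C1 inhibitor, which blocks the proteases attached to C1q. In the brain C1q comes mainly from microglia and C3 is made by microglia and by reactive astrocytes. In developing mouse brain, C1q and C3 take part in the removal of synapses by microglia.

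The genes C1qb, C1qc and C1qa follow each other directly in the rat RefSeq gene order. The promoter sequences at hand held none for C1qc and Serping1. Sequences of the 300 bases around the gene start (250 before and 50 after) are shown for the other members, C1qa, C1qb and C3. They were matched by symbol in RefSeq's GRCr8 assembly, whereas the counts refer to Rnor_6.0, and all run 5′ to 3′ on the minus strand, at chr5:154419884-154420183 for C1qa, chr5:154407778-154408077 for C1qb and chr9:2201290-2201589 for C3. Capitals mark matches to a searched motif.
C1qa: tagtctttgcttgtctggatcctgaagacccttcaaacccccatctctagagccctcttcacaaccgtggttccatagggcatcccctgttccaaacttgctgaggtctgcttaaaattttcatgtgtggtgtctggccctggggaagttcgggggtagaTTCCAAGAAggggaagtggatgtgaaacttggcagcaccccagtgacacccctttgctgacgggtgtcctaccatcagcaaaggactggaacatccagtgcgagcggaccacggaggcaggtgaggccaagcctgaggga
C1qb: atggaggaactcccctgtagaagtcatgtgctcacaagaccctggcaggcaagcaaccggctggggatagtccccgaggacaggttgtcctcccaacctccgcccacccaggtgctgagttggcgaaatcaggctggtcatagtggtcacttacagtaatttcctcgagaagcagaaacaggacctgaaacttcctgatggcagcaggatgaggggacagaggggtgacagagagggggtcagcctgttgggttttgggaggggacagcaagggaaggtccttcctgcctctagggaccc
C3: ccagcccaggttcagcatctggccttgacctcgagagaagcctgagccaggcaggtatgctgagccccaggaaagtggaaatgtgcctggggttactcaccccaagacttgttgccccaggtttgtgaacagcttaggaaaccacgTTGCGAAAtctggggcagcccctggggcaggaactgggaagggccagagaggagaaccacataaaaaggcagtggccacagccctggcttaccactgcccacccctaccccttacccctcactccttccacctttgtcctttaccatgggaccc
Both strands were searched for the motif TTGCNNAA of C/EBP proteins, TTCNNNGAA of STAT proteins, GAGGAAGT of PU.1 and TGANTCA of AP-1, and for TATAAA, the core promoter box. The C1qa window held 1 STAT match, TTCCAAGAA, which begins 90 bases before the gene start; 8.87% of the 33469 promoter windows of this length held such a match. The C3 window held 1 C/EBP match, TTGCGAAA, 104 bases before the start, against 10.6% of all windows. TATAAA occurred in 14.2%, TGANTCA in 7.33% and GAGGAAGT in 2.42% of all windows. These letters were not in the 3 windows shown, and the C1qb window held no match to any of the 5 motifs. A match is a run of letters and not a shown binding site.

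Libraries held 20623196 to 25893962 gene counts in epileptic and 16135358 to 19550582 in control rats, so that values are given as CPM, counts relative to the scaled library size. The share of alignments outside annotated exons also varied, from 22.3 to 26.7% in the libraries of epileptic animals 2 and 3, from 37.7 to 42.96% in those of epileptic animal 1 and from 35.8 to 44.0% in control libraries. Alignments that were not unique made up 37.9 to 45.6% in epileptic animals 2 and 3. They made up 25.2 to 30.6% in epileptic animal 1 and 25.9 to 34.8% in control libraries. Both are shares of all alignments. Symbols could not be paired with the other identifiers, so the labelled tissue could not be checked against pyramidal cell markers, and no microglial, astrocyte or endothelial marker list nor any list of further complement genes could be read. A change in the number of cells of a type and a change in RNA per cell cannot be told apart in tissue of this kind.

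The 3 C1q chains were 2.57- to 3.34-fold higher in deep and 5.00- to 6.11-fold higher in superficial CA1 of epileptic rats, but no chain passed the adjusted threshold of 0.05, and the 3 epileptic animals differed widely. C1qa, the A chain, had 7.82, 13.2 and 32.9 CPM in deep libraries of epileptic animals 1, 2 and 3, against 5.88, 6.39 and 8.72 CPM in deep control libraries. In superficial libraries C1qa had 7.72, 16.0 and 44.2 CPM in epileptic animals 1, 2 and 3, against 3.78, 3.80 and 5.91 CPM in control animals. Epileptic animal 3 was highest in both sublayers, and animal 1 lay within the control range in deep CA1 and above it in superficial CA1. The log2 fold change of C1qa, epileptic over control, was 1.36 (SE 0.49, adjusted p = 0.2945) in deep and 2.36 (SE 0.71, adjusted p = 0.2064) in superficial CA1 by edgeR's quasi-likelihood test.

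C1qb, the B chain, had 3.43, 5.20 and 16.6 CPM in deep libraries of epileptic animals 1, 2 and 3, against 2.12, 2.57 and 2.85 CPM in deep control libraries. In superficial libraries it had 2.93, 6.03 and 20.1 CPM in epileptic and 1.15, 1.61 and 2.10 CPM in control animals. The groups did not overlap in either sublayer, although epileptic animal 1 lay close above the highest control. Its log2 fold change was 1.74 (SE 0.55, adjusted p = 0.2543) in deep and 2.61 (SE 0.77, adjusted p = 0.1969) in superficial CA1 by the same test.

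C1qc, the C chain, had 6.15, 10.9 and 22.7 CPM in deep epileptic libraries, against 3.50, 4.14 and 6.41 CPM in deep control libraries. In superficial libraries it had 5.35, 12.4 and 39.3 CPM in epileptic and 2.73, 4.23 and 4.73 CPM in control animals. As for C1qa, epileptic animal 1 fell inside the control range in deep CA1 only. The log2 fold change of C1qc was 1.50 (SE 0.46, adjusted p = 0.2429) in deep and 2.32 (SE 0.79, adjusted p = 0.2293) in superficial CA1. With the replicate number as a block, which joins different animals, the deep value was 1.38 with an adjusted p of 0.01966; no other member passed in the blocked fits.

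C3, the component shared by all routes of the cascade, was 5.12-fold higher in deep and 18.6-fold higher in superficial CA1 of epileptic rats in the fit. It had 7.30, 17.1 and 40.0 CPM in deep libraries of epileptic animals 1, 2 and 3, against 4.18, 4.34 and 4.04 CPM in deep control libraries. In superficial libraries it had 5.99, 26.4 and 102 CPM in epileptic animals, against 1.82, 3.58 and 1.99 CPM in control animals. The deep control libraries lay within a 1.08-fold range, and each epileptic library lay above every control library of its sublayer. Between epileptic animals the range was 5.49-fold in deep and 17.0-fold in superficial CA1. The log2 fold change of 2.35 in deep (SE 0.57, adjusted p = 0.1923) and of 4.22 in superficial CA1 (SE 1.18, adjusted p = 0.1951) did not pass edgeR's test.

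Serping1, the inhibitor, had the largest fitted fold change of the 5 genes in both sublayers, from a low control level. It had 2.91, 11.2 and 45.4 CPM in deep libraries of epileptic animals 1, 2 and 3, against 1.01, 0.890 and 1.13 CPM in deep control libraries. In superficial libraries the values were 3.49, 12.5 and 111 CPM in epileptic animals, against 0.622, 0.428 and 0.698 CPM in control animals. The epileptic values rest on 61 to 2358 reads and the control values on 8 to 19 reads; the exact 95% Poisson interval of the lowest, 8 reads in superficial control animal 2, is 3.45 to 15.8 reads and covers counting error only. The groups did not overlap. The log2 fold change was 4.29 in deep (SE 1.05, adjusted p = 0.208) and 6.20 in superficial CA1 (SE 1.72, adjusted p = 0.1946), and neither passed.

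**Figure D1:**
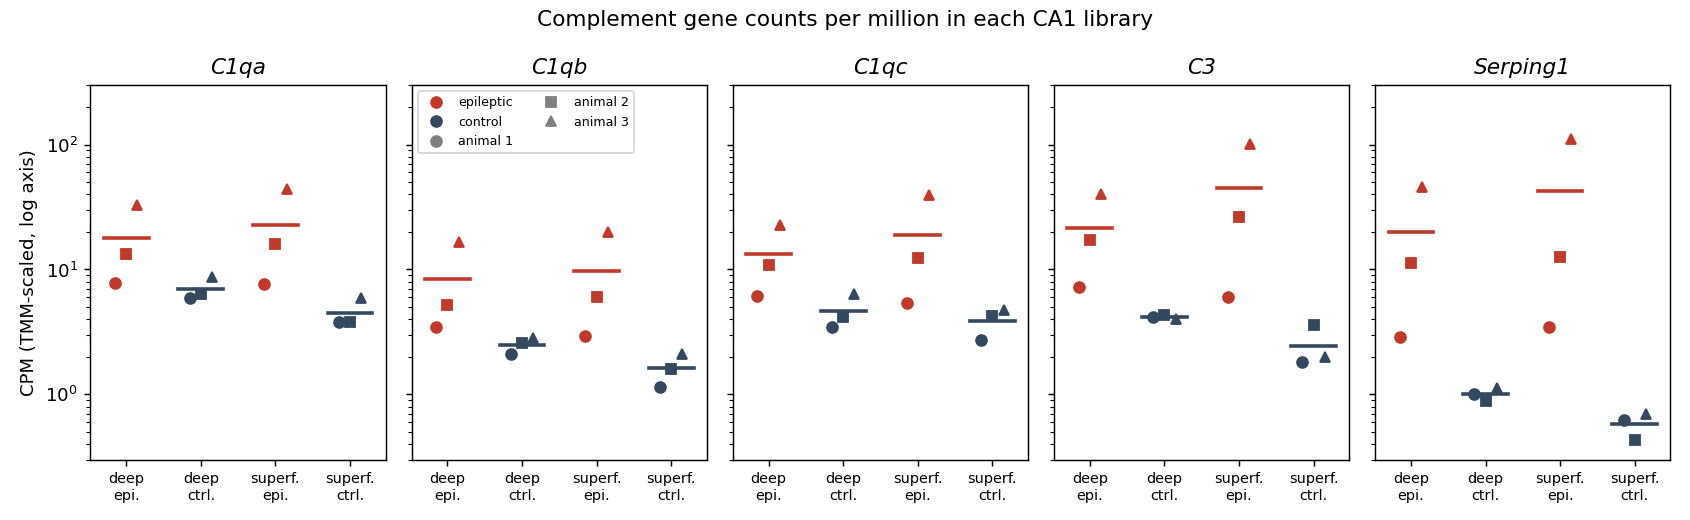
Library-size-scaled counts (CPM, log axis) of the 5 complement genes in each of the 12 libraries. Points are libraries, lines are group means (n = 3), red is epileptic, dark blue is control, and marker shapes give the animal number, which denotes different rats in the 2 conditions. The epileptic values fan out from near the control range to 111 CPM for Serping1, while the control values stay close together.

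In all, 5 of 5 members had a higher mean in epileptic rats in each sublayer, a direction seen in 50.2% of all identifiers in the deep and 51.0% in the superficial comparison. Of these members 0 of 5 passed edgeR's quasi-likelihood test in either, which called 0% of the 14261 identifiers of the deep comparison and 0.0140% of the 14321 of the superficial one. At an unadjusted p below 0.05, all 5 members lay on the higher side in both sublayers, which held for 8.22% of all identifiers in the deep and 10.2% in the superficial comparison. The median log2 fold change of the members was 1.74 (deep) and 2.61 (superficial), against 0.0009 (deep) and 0.0068 (superficial) over everything tested. Epileptic and control libraries did not overlap for 3 of 5 members in deep CA1, where 8.82% of all identifiers separated with epileptic higher, and for 5 of 5 in superficial CA1, where 10.2% did. DESeq2 called 4 of 5 in each sublayer, leaving out C1qa in deep and C1qc in superficial CA1; it called 2.64% (deep) and 6.43% (superficial) of the identifiers to which it gave an adjusted p. Both sublayers come from the same animals, so the sublayers are not separate evidence.

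Which animal was measured set the size of these values. Without epileptic animal 1, all 5 members passed in both sublayers, with adjusted p of 0.01617 to 0.04457 in deep and 0.02919 to 0.04044 in superficial CA1; 3.82% (deep) and 9.96% (superficial) of all identifiers passed in these fits. Without epileptic animal 3, the log2 fold change in superficial CA1 was 2.74 for C3 (adjusted p = 0.214) and 3.78 for Serping1 (adjusted p = 0.04043). In deep CA1 it was 1.54 for C3 (adjusted p = 0.0623) and 2.80 for Serping1 (adjusted p = 0.06482), by edgeR's quasi-likelihood test. Of all identifiers, 1.91% (deep) and 2.84% (superficial) passed without that animal. The C1q chains then had log2 fold changes of 0.59 to 0.88 in deep and 1.21 to 1.49 in superficial CA1. Animals 2 and 3 are also those with the low share of alignments outside exons and the high share of alignments that were not unique. With that share as a covariate, the log2 fold changes were 0.10 to 0.37 for the C1q chains, 0.75 for C3 and 1.40 for Serping1 in deep CA1, and 0.35 to 0.78, 1.08 and 2.39 in superficial CA1, none of which passed (adjusted p = 0.3608 to 0.999). In deep CA1, epileptic animal 1 had 42.96% outside exons, within the control range of 40.4 to 44.0%, whereas animals 2 and 3 had 26.7 and 22.3%. In superficial CA1, too, only animal 1 lay within the control range. This fit therefore cannot tell the share apart from which epileptic animal was measured, and the part of RNA composition in the result was not tested.

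Departures were therefore read animal by animal, as the log2 CPM of an epileptic library minus the mean of the control libraries of its sublayer. For Serping1 they were 1.45, 3.35 and 5.37 in the deep libraries of animals 1, 2 and 3, and 2.42, 4.23 and 7.37 in their superficial libraries, the last being 166-fold. For C3 they were 0.79, 2.00 and 3.23 in the deep and 1.31, 3.43 and 5.38 in the superficial libraries. For C1qa they were 0.18, 0.93 and 2.24 in the deep and 0.80, 1.84 and 3.30 in the superficial libraries. In each of the 5 genes and both sublayers animal 3 stood highest and animal 1 lowest, an order shared by 15.5% of all identifiers. In every animal and both sublayers the departure was largest for Serping1, next for C3 and smaller for each C1q chain.

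**Figure D2:**
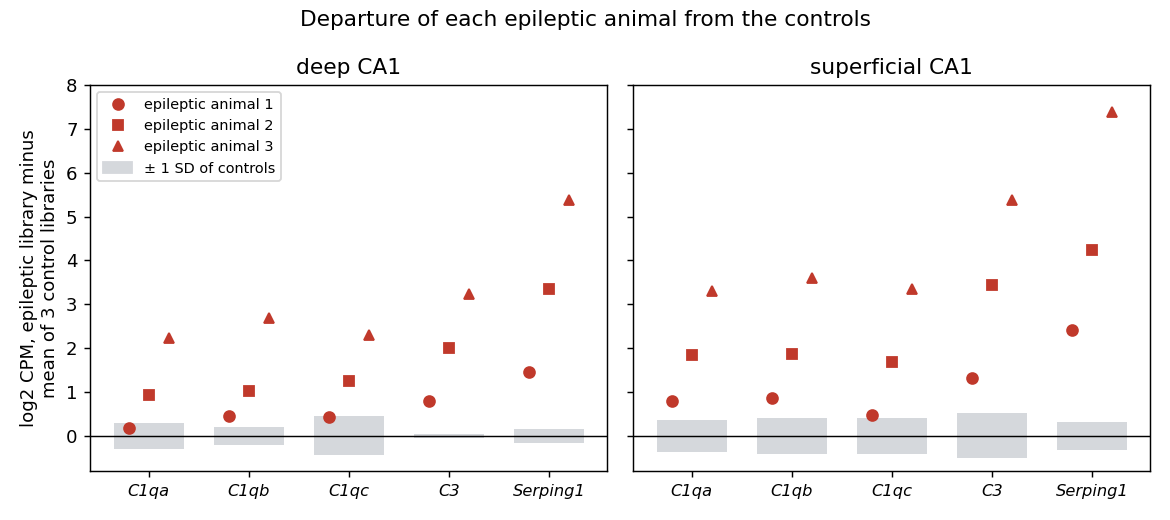
Log2 CPM of each epileptic library minus the mean of the 3 control libraries of the same sublayer, for deep (left panel) and superficial CA1 (right panel). Red markers are epileptic animals and grey boxes span 1 SD of the controls on either side of 0. Animal 3 reached 7.37 for Serping1 in superficial CA1, and animal 1 lay inside or near the box for the C1q chains in deep CA1.

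The spread among epileptic animals was wide compared with that of most identifiers. The SD of log2 CPM over 3 epileptic animals was 0.93 to 1.16 for the C1q chains, 1.22 for C3 and 1.96 for Serping1 in deep CA1, against a median of 0.21 over 14791 identifiers. In superficial epileptic libraries it was 1.26 to 1.43 for the C1q chains, 2.03 for C3 and 2.51 for Serping1, against a median of 0.20. For Serping1, 0.304% of identifiers in the deep and 0.270% in the superficial epileptic libraries had an SD at least as high. In control rats the SD of Serping1 was 0.16 (deep) and 0.31 (superficial), and 42.2% (deep) and 15.8% (superficial) of identifiers had an SD at least as high. C3 had an SD of 0.052 in deep control libraries, lower than that of most identifiers, of which 85.9% had at least as much. It rests on 3 libraries with 68 to 83 C3 reads each, and whether C3 varies less than other genes among control rats was not tested. In superficial control libraries the SD of C3 was 0.51, and 5.66% of identifiers had at least as much. For the C1q chains the SD in the control groups was 0.21 to 0.44. Of all identifiers 8.23 to 29.3% had at least as much. These SDs also hold the counting error of low counts.

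Ratios between members do not depend on how libraries are scaled, and they separated the C1q chains from C3 and Serping1. The counts are not per length, so a ratio is read only between conditions. C1qa held 42.7 to 48.3% of the reads of the 3 chains in the 6 epileptic libraries and 39.4 to 51.2% in the 6 control libraries. The C1qb share was 17.5 to 22.96% in epileptic and 15.0 to 19.6% in control libraries, and the C1qc share 31.4 to 37.97% in epileptic and 30.4 to 43.9% in control libraries. All 3 ranges overlapped.

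There were more C3 and more Serping1 reads per C1q read in each epileptic than in any control animal. With both sublayers of an animal summed, there were 0.398, 0.689 and 0.821 C3 reads per C1q read in epileptic animals 1, 2 and 3, against 0.310, 0.349 and 0.194 in control animals. Serping1 reads per C1q read were 0.192, 0.370 and 0.906 in epileptic animals, against 0.0849, 0.0581 and 0.0593 in control animals. C3 reads per Serping1 read were 2.07, 1.86 and 0.906 in epileptic animals and 3.66, 6.00 and 3.28 in control animals. The groups did not overlap for these 3 ratios, of which the third follows from the other 2. The share of other gene pairs that separate in this way was not computed. The mean log2 ratio, epileptic minus control, was 1.14 for C3 to C1q, 2.59 for Serping1 to C1q and −1.46 for C3 to Serping1. Each had p = 0.1 in an exact two-sided permutation test, the lowest this design allows, which is 0.167 after adjustment over 5 ratios. For C1qb to C1qa the difference was 0.22 (exact permutation p = 0.3, adjusted p = 0.375) and for C1qc to C1qa 0.081 (exact permutation p = 0.7, adjusted p = 0.7), with overlapping groups.

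**Figure D3:**
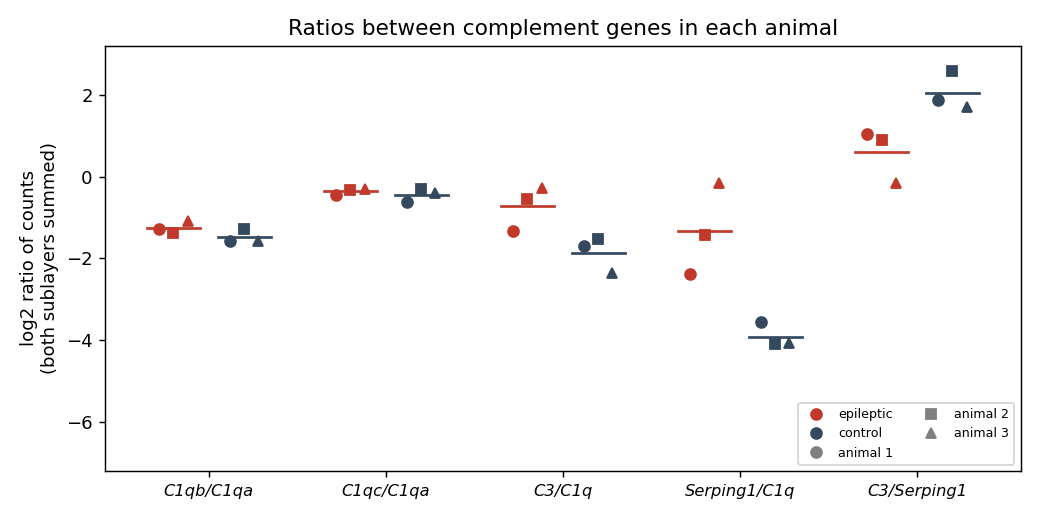
Log2 ratios of read counts between complement genes, both sublayers of an animal summed, where C1q is the sum of the 3 chains. Points are animals, lines are means (n = 3), red is epileptic and dark blue is control. The ratios within C1q overlap between conditions, whereas those of C3 and Serping1 to C1q lie higher in each epileptic than in any control animal.

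The sublayers were then compared within animals, as superficial relative to deep CA1. In control rats all 5 members had lower means in superficial CA1, as did 48.3% of all identifiers, and 4 of 5 (all but C1qc) were lower there in each of 3 animals, which was so for 23.1% of all identifiers. C1qa fell in superficial CA1 of control rats, with 3.78, 3.80 and 5.91 CPM in superficial and 5.88, 6.39 and 8.72 CPM in deep libraries (log2 fold change −0.64, SE 0.13, adjusted p = 0.004958). It was 1 of 5 members called, where 8.44% of 14791 identifiers were called. The call was lost without control animal 2 (adjusted p = 0.05973) and when the animal was a random effect in limma-voom (adjusted p = 0.5351). C1qb missed the threshold at −0.65 (SE 0.20, adjusted p = 0.05638). C3 at −0.78 (SE 0.49, adjusted p = 0.4261), Serping1 at −0.78 (SE 0.59, adjusted p = 0.4825) and C1qc at −0.26 (SE 0.20, adjusted p = 0.4864) did not pass.

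In epileptic rats all 5 members instead had higher means in superficial CA1, as did 53.2% of all identifiers. Serping1, with 3.49, 12.5 and 111 CPM in superficial and 2.91, 11.2 and 45.4 CPM in deep libraries, was 1 of 5 members called (log2 fold change 0.77, SE 0.20, adjusted p = 0.04191), where 10.0% of identifiers were called. It was the only member higher in the superficial library of each of 3 epileptic animals, as were 21.0% of all identifiers, at 0.25, 0.16 and 1.29 log2 CPM for animals 1, 2 and 3. The call rested on animal 3, without which the value was 0.19 (adjusted p = 0.4152), and was lost in 9 of 13 alternative fits. For C3 the superficial library differed from the deep one by −0.28, 0.62 and 1.35 log2 CPM in animals 1, 2 and 3 (log2 fold change 0.76, SE 0.28, adjusted p = 0.1683). Without epileptic animal 1, C1qa, C1qc and C3 passed, with adjusted p of 0.004874 to 0.0202, and Serping1 did not (adjusted p = 0.1211), where 6.97% of all identifiers passed.

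**Figure D4:**
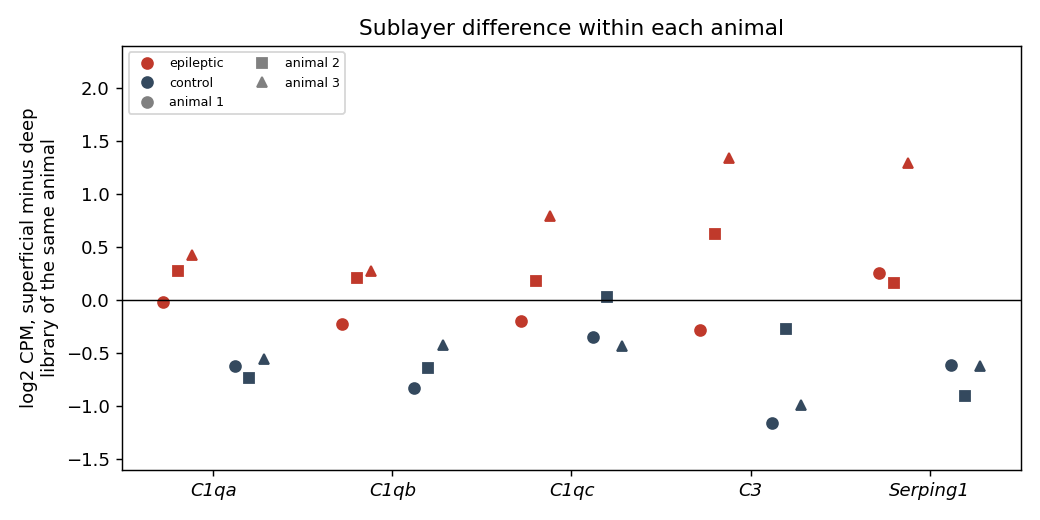
Log2 CPM of the superficial minus the deep library of each animal for the 5 complement genes. Red is epileptic, dark blue is control and marker shapes give the animal number. Control values lie below 0 except C1qc in animal 2, and for each gene the highest value belongs to epileptic animal 3.

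Next, the superficial minus deep difference of epileptic rats was set against that of control rats. C1qa had superficial minus deep values of −0.02, 0.28 and 0.42 log2 CPM in epileptic animals 1, 2 and 3, against −0.62, −0.73 and −0.55 in control animals. The 2 sets did not overlap for C1qa, and the same held for C1qb and Serping1, whereas those of C1qc and C3 overlapped. The share of all identifiers that separated in this way was not computed. On the log2 scale the 2 effects of C1qa differed by 0.91 (SE 0.16), which had the third smallest p of 14791 identifiers, unadjusted p = 3.153e-05, and did not pass after adjustment (adjusted p = 0.131, edgeR's quasi-likelihood test). For the other members the difference was 0.79 for C1qb, 0.62 for C1qc, 1.54 for C3 and 1.56 for Serping1, with adjusted p of 0.4672 to 0.7418. All 5 were on the side of a relatively higher superficial level in epileptic rats, as were 48.5% of all identifiers, with an unadjusted p below 0.05, as were 4.04% of all identifiers, and 0 of 5 passed, where 0% of identifiers did. DESeq2 also called 0 of 5. Without epileptic animal 1, C1qa (1.01, adjusted p = 0.003331) and C3 (1.82, adjusted p = 0.04894) passed, as did 0.563% of all identifiers.

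Patterns over the 12 libraries were compared by the root mean square difference of mean-centred log2 CPM, which is small when 2 genes move alike in size and direction. From C1qa, C1qb lay at 0.18 and C1qc at 0.22, ranks 2 and 4 among 9398 identifiers, whose median was 1.11. The set holds identifiers whose log2 CPM averaged 3 or more, together with the members, of which C1qb, C1qc and Serping1 lay below that level. C3 lay at 0.75, rank 218, and Serping1 at 1.41, rank 9353, with a wider range than that of C1qa. From Serping1, C3 was the second nearest at 0.85, against a median of 2.46. C1qb, C1qc and C1qa lay at ranks 6, 11 and 13 from Serping1, at 1.31 to 1.41. The rank thus depends on the gene from which the distance is taken. The 2 other identifiers nearest to C1qa were ENSRNOG00000013907 at 0.17 and ENSRNOG00000021084 at 0.20, which the files do not name. ENSRNOG00000013907 had 10.8, 16.5 and 36.4 CPM in deep and 9.67, 20.96 and 63.2 CPM in superficial libraries of epileptic animals 1, 2 and 3, against 8.15 to 11.8 CPM in deep and 6.03 to 8.43 CPM in superficial control libraries. The libraries share 6 animals, so these distances are a description.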

How the data were processed

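RNA-seq libraries of deep and superficial CA1 from 3 epileptic and 3 control rats were used as raw gene counts, whole numbers of reads for each Ensembl identifier that the authors deposited separately for every library. Tools named in the submitters' processing notes are FastQC 0.11.3, STAR 2.5.0c, SAMtools 0.1.19, HTSeq 0.6.1, with the build Rnor_6.0 and without settings. Use of strand in counting is not stated there. Reads of overlapping or antisense genes may not be told apart. Library sizes and tests leave out the 5 summary tallies; those for reads outside exons made up 22.3 to 44.0% of all alignments. The reference table pairs 0 identifiers with symbols. The symbols of the 5 members were given with their identifiers, and the members, lists and alternatives were chosen with earlier results of these data known. Fixed lists of other complement genes and of cell type markers were therefore not analysed here.

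The analysis used edgeR 4.0.16 (R 4.3.3). The low-count filter was filterByExpr with a minimum count of 10 and a minimum total of 15. Libraries were scaled by TMM, and identifiers were tested over the whole table by the robust quasi-likelihood test with Benjamini-Hochberg adjustment at 0.05. The tests were checked on simulated counts for recovery and sign of added fold changes. The simulated spread of a gene was the same in epileptic and control libraries, and false calls were not counted. Epilepsy was tested in the 6 libraries of each sublayer, and the sublayers in a single 12-library model that holds a term for each animal, since both were cut from the same brains. Deviations from group means correlated across identifiers at 0.316 to 0.77 between sublayers of 1 animal. Epileptic and control libraries of 1 number come from different rats; their deviations had correlations of 0.218, 0.104 and 0.244 (deep) and of 0.212, 0.00252 and 0.17 (superficial). The SE is the absolute log2 fold change divided by the square root of the F statistic, an approximation. CPM use TMM-scaled library sizes, and log2 CPM a prior count of 2. DESeq2 1.42.0 and limma 3.58.1 were alternatives. P-values between conditions measure the spread of 3 animals per condition. Within groups no libraries were duplicates (chi-square per identifier at least 7.29 between replicates). Libraries of different groups were not compared in this way. The text names all 5 members and, by the rule for similar patterns, the 2 identifiers nearest to C1qa among those with a mean log2 CPM of at least 3.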

Additional observations from a re-analysis of the deposited data

Results flagged for a closer look

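Serping1 was flagged because its sublayer difference ran in opposite directions in the 2 conditions in every animal. Superficial minus deep, it was 0.25, 0.16 and 1.29 log2 CPM in epileptic animals 1, 2 and 3, against −0.62, −0.91 and −0.62 in control animals. The test of that difference gave 1.56 (SE 0.62) on the log2 scale and did not pass (adjusted p = 0.7349, edgeR's quasi-likelihood test). Without epileptic animal 3 the same test gave 0.98 (adjusted p = 0.4931). Of all identifiers, 21.0% were higher in superficial CA1 in 3 of 3 epileptic animals. In control rats 23.1% were lower there in 3 of 3 animals, and the share with both was not computed. The control values rest on 8 to 19 reads a library.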

How the results depend on the processing

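Between epileptic and control rats 0 of 5 members were called, beside 0% (deep) and 0.0140% (superficial) of all identifiers. DESeq2 called 4 in each sublayer (2.64% and 6.43% of the identifiers with an adjusted p). Limma-voom with quality weights called 3 in deep and 0 in superficial CA1 (14.9% and 12.2% of all). The replicate block called 1 in deep (C1qc) and 0 in superficial CA1 (1.68% and 0.175%). With 1 animal left out the count was 0 to 5 in each sublayer (0 to 3.82% and 0 to 9.96%). Deep and superficial log2 fold changes kept their sign in all 13 alternatives. For the sublayer difference in control rats, against 1 called (8.44% of all), 3 were called without a low-count filter (8.06%), 2 with quality weights (17.3%), 0 with the animal as a random effect (4.96%), 0 with no replicate block (0.0338%) and 0 to 3 with 1 animal left out (2.76 to 14.0%); C1qc reversed to 0.096 with the share outside exons as covariate. In epileptic rats, against 1 called (10.0% of all), 3 were called without a filter (8.99%) and 3 with quality weights (17.8%). DESeq2 called 0 there (6.49% of the identifiers with an adjusted p). The counts were 0 with the random effect (6.01%), 4 with the covariate (17.1%) and 0 with no replicate block (0.0338%). With 1 animal left out, 0 to 3 were called (3.59 to 15.0%). For the interaction, against 0 called (0% of all), the counts were 3 without a filter (0.751%), 1 with quality weights (0.717%) and 1 with the covariate (0.21%). With 1 animal left out, 0 to 2 were called (0 to 0.563%). The C1qc to C1qa ratio reversed to −0.14 in superficial libraries alone, and was −0.015 to 0.15 with 1 animal left out. The causes were not tested. Control counts of Serping1, 8 to 19 reads, limit its sublayer comparison.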
